A study of Mus musculus with 22 samples.

Results

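The control cultures of both arms of the study are described here: 12 of the 22 samples of the series, 6 given a lentivirus with a short hairpin RNA against luciferase (shLuc) and 6 given vehicle. They were chosen by their labels alone, as the control side of each arm, and no measured value entered the choice. All 12 were primary neural stem cells (NSCs) from the hippocampus of adult mice, grown at 10000 cells per well on poly-D-lysine and laminin in Neurobasal A with B27 and 10 ng/ml each of EGF and bFGF. The shLuc cultures received 10 viral particles per cell 3 days before RNA was extracted. The vehicle cultures received DMSO for 24 h, at the volume used for the inhibitor of O-GlcNAc transferase in the other samples of that arm. Strain, age in weeks, sex and any pooling of animals are not given in the sources used here. The labels do not tell whether the 6 samples of a group were grown from different animals or wells, so the p-values measure only how these samples vary, and that variation may be technical. Hairpin and virus, time in culture after treatment, solvent, experiment and sequencing depth all differ between the 2 control groups. Whether library preparation differed as well is not settled by the sources. The parts of these in any difference cannot be told apart.

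Adult hippocampal NSCs lie in the dentate gyrus, where they are radial glia-like cells that can stay quiescent or divide to give neurons and astrocytes. In culture, EGF and FGF keep them dividing as adherent progenitors. They share many transcripts with astrocytes, such as the glutamate transporter gene Slc1a3, and with oligodendrocyte progenitors, such as the transcription factor gene Olig1. A control profile shows which of these programmes the cultures carried without a treatment aimed at O-GlcNAc transferase. O-GlcNAc itself is not measured by these RNA data.

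Reads per sample, recovered from the deposited normalised counts, were 9852956 to 13222262 in shLuc and 4522610 to 5927905 in vehicle (exact permutation test, two-sided, p = 0.00217, n = 6 per group). Precursor ribosomal RNA, entered as Rn45s, took 0.938 to 1.25% of reads in shLuc and 4.81 to 14.2% in vehicle. Of 24411 table entries, 5713 had no read in any of the 12 samples and 11950 had a read in every one. The shLuc replicate 3 sample had 1237 genes with a read in that sample alone, against 44 to 170 in each of the others, and held reads in 389 of 1107 olfactory receptor genes against 8 to 91. Pearson's r of log2 levels over 11736 genes was 0.956 to 0.981 between shLuc samples, 0.957 to 0.979 between vehicle samples and 0.905 to 0.952 between the groups. Within their groups, shLuc replicate 1 and vehicle replicate 1 lay apart on the first principal component.

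The 4 genes taken as marks of these cells were all present in all 12 samples. Levels per sample are given as reads after joint scaling of the 12 samples, which can be compared between samples but not between genes. Levels between genes are given as RPKM (reads scaled to exon length in kilobases and to the total of reads other than Rn45s, mean ± SD, n = 12). Olig1 was the highest of the 4 per length, at 903 ± 96.4 RPKM, followed by Slc1a3 at 133 ± 10.7, the intermediate filament gene Nes at 87.5 ± 5.43 and the EGF receptor gene Egfr at 13.0 ± 1.29 RPKM. The spreads of these 4 levels did not meet. In scaled reads, Nes lay at 3695 to 4165 (median 4061) in shLuc and 3625 to 4204 (median 3839.6) in vehicle. Egfr lay at 875 to 1178 (median 1049) in shLuc and 967 to 1174 (median 1032) in vehicle, and Olig1 at 11899 to 14146 (median 13498) in shLuc and 12467 to 15697 (median 13779) in vehicle. The groups overlapped in all 3.

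Several other genes of radial glia and neural progenitors were abundant too. Of 19 genes of the stem cell and radial glia list, 6 averaged below 1 RPKM and 9 at least 10. The brain lipid-binding protein gene Fabp7 stood at 1195 ± 289.6 RPKM, the BMP target Id3 at 301 ± 17.7, the filament gene Vim at 208 ± 54.5 and the matrix gene Tnc at 164 ± 17.2. The cyclin D genes Ccnd1 and Ccnd2, which drive entry into the cell cycle, stood at 497 ± 121 and 253 ± 25.3 RPKM. Sox2, a transcription factor gene used to identify neural stem cells, was low, at 4.55 ± 1.85 RPKM. It lay at 31.3 to 74.0 (median 44.7) in shLuc and 72.1 to 119 (median 77.2) in vehicle scaled reads. Gfap, the filament gene of astrocytes and radial glia in tissue, was near the floor of the assay at 0.433 ± 0.161 RPKM, with 11.3 to 18 (median 12.0) in shLuc and 2.76 to 22.4 (median 11.4) in vehicle scaled reads. Markers of adult hippocampal NSCs were thus unevenly represented, with Nes, Slc1a3 and Fabp7 high and Sox2 and Gfap low, in both groups.

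Astrocyte and oligodendrocyte progenitor lists were each split as well. Of 18 astrocyte genes, 6 averaged below 1 RPKM and 7 at least 10. Of 14 oligodendrocyte progenitor genes, 6 averaged below 1 RPKM and 4 at least 10. The astrocyte sum was 1067 to 1162 RPKM in shLuc and 857 to 946 in vehicle. The oligodendrocyte progenitor sum was 1023 to 1183 RPKM in shLuc and 1066 to 1342 in vehicle. Among astrocyte genes, Acsbg1, an acyl-CoA synthetase gene, stood at 419 ± 95.4 RPKM and the membrane protein gene Mlc1 at 353 ± 23.7, while the water channel gene Aqp4 stood at 0.0370 ± 0.0455. Among genes of oligodendrocyte progenitors, the proteoglycan gene Bcan stood at 153 ± 27.1 RPKM and Olig2, a transcription factor gene of the lineage, at 34.3 ± 9.1. The progenitor receptor gene Pdgfra stood at 0.0983 ± 0.0917 RPKM and Sox10 at 0.0131 ± 0.0259. Olig1 and Olig2 were therefore present without appreciable Pdgfra or Sox10 RNA.

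Defining genes of microglia, blood vessel cells and fibroblasts were at or near 0, whereas lists of neurons and of ependymal cells were mixed. All 14 genes of the microglia and immune list averaged below 1 RPKM, and 3 had no read in the 12 samples. Their summed level was 0.367 to 1.92 RPKM in shLuc and 0.954 to 2.5 in vehicle. Of the 14 endothelial, mural and fibroblast genes, 13 averaged below 1 RPKM, the exception being Acta2, the smooth muscle actin gene, at 3.99 ± 3.77. Their sum was 0.624 to 1.27 RPKM in shLuc and 7.4 to 9.46 in vehicle. Dcx, the gene for the neuroblast protein doublecortin, had 0 to 2.72 (median 1.12) in shLuc and 0 to 8.01 (median 0.745) in vehicle scaled reads, and Neurod1, a gene of immature granule neurons, 0 to 1.45 (median 0.895) in shLuc and 0 to 4.8 (median 2.09) in vehicle. In the whole neuroblast and immature neuron list, 9 of 17 members averaged below 1 RPKM and 6 at least 10, among them the adhesion gene Ncam1 at 62.4 ± 4.72 and the microtubule protein gene Map2 at 21.3 ± 2.41. Its sum was 147 to 176 RPKM in shLuc and 134 to 151 in vehicle. The mature neuron list had 13 of 16 members below 1 RPKM. The ependymal and choroid plexus list had 5 of 10 below 1 RPKM and none at 10, with a sum of 14.0 to 26.8 RPKM in shLuc and 21.0 to 26.2 in vehicle.

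Genes that mark brain regions were mostly low. Of 17 dorsal telencephalon genes, 9 averaged below 1 RPKM, and Lmo4, a transcription cofactor gene, was the 1 above 10, at 31.0 ± 10.2. Their sum was 53.7 to 70.8 RPKM in shLuc and 40.8 to 48.0 in vehicle. Of 16 ventral telencephalon genes 14 were below 1 RPKM, with a sum of 8.24 to 13.2 RPKM over all samples. Of 20 midbrain, hindbrain and cord genes, 17 were below 1 RPKM and 9 had no read, with a sum of 5.93 to 14.3. Emx1, a gene of the dorsal telencephalon from which the hippocampus forms, had no read in any of the 12 samples, a limit of 3 reads in 93980583 reads other than Rn45s, for counting error only. Its relative Emx2 had 0.651 to 3.4 (median 1.47) in shLuc and 1.46 to 8.29 (median 3.84) in vehicle scaled reads. Other regional genes were present at low levels. Otx1 and Otx2, of forebrain and midbrain, stood at 6.15 ± 0.879 and 2.56 ± 0.474 RPKM, and the forebrain gene Lhx2 at 2.46 ± 0.622. The highest of the midbrain, hindbrain and cord list included Gbx2, a gene of the anterior hindbrain, at 5.98 ± 2.08 RPKM, and Hoxa5, of the posterior hindbrain and cord, at 1.72 ± 0.74.

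Y-linked genes had reads in all 12 samples. Eif2s3y stood at 7.57 ± 1.83 RPKM, Ddx3y at 5.78 ± 1.92, Kdm5d at 1.26 ± 0.223 and Uty at 1.19 ± 0.589, while Xist, the RNA of the inactive X chromosome, and its antisense Tsix each had at most 1.12 scaled reads in any sample.

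**Figure D1:**
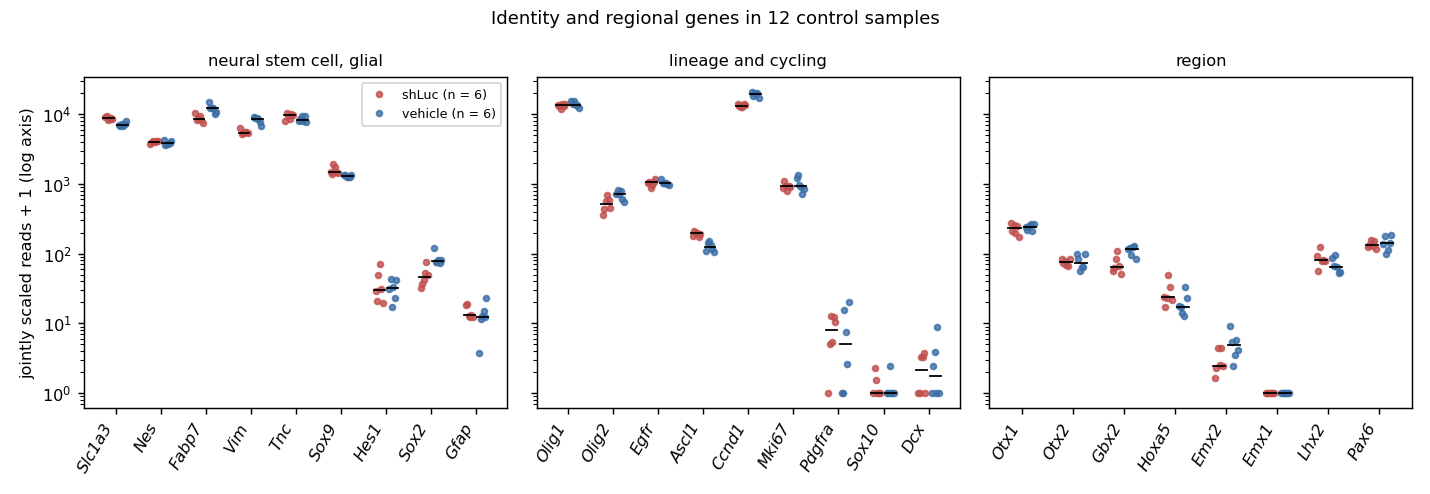
Levels of 26 identity and regional genes in each of the 12 control samples, as jointly scaled reads plus 1 on a log axis, with shLuc in red, vehicle in blue and the group median as a bar. Nes, Slc1a3, Fabp7 and Olig1 lie at 3625 or above in every sample, whereas Dcx, Sox10 and Emx1 lie near 0.

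The most abundant transcripts outside ribosomal RNA and ribosomal proteins included genes of energy supply and of the cytoskeleton. Creatine kinase Ckb led at 6481 ± 382 RPKM, ahead of the insulin-like growth factor binding protein gene Igfbp2 at 3481 ± 1179.8 and the ferritin light chain gene Ftl1 at 3109.8 ± 702. Actb, for cytoplasmic actin, stood at 2920.1 ± 1045 RPKM, the tubulin gene Tuba1a at 1989.5 ± 138 and the ubiquitin gene Ubb at 1918 ± 424. Eef1a1, Pkm, Calm2, Tmsb4x, Hspa8 and 1500015O10Rik completed the first 12, from 1884 down to 1242 RPKM. These 12 genes took 6.87% of reads other than Rn45s. From Igfbp2 downward, the mean ± SD interval of each gene over all 12 samples met that of the next in this order. That SD includes the difference between the groups, so it does not settle these ranks, which were not compared within samples. Ckb stood clear of Igfbp2.

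Several feedback genes of growth factor signalling were abundant. Of 22 genes of the EGF and FGF signalling list, 10 averaged at least 10 RPKM and 8 below 1, and Fgf2 had no read. Dusp6, a phosphatase gene that ERK signalling induces and that acts on ERK, stood at 586 ± 48.1 RPKM, the transcription factor gene Etv5 at 323 ± 48.3, and the Sprouty genes Spry4 and Spry2 at 145 ± 19 and 51.2 ± 29.7. Notch pathway genes were low: Notch1 stood at 7.28 ± 1.72 RPKM, and its target genes Hes1 and Hes5 at 2.31 ± 1.04 and 0.373 ± 0.387. Cdkn1a, which encodes the p21 inhibitor of the cell cycle, stood at 365 ± 25.0 RPKM, beside the proliferation gene Mki67 at 13.6 ± 2.82. Ogt, which encodes O-GlcNAc transferase, stood at 10.7 ± 1.22 RPKM, and Mgea5, which encodes the enzyme that removes the sugar, at 5.09 ± 1.15.

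Within a group, replicate samples differed little for most genes. Over 3145 genes with a mean of at least 500 scaled reads, the median within-group coefficient of variation was 9.37%. The steadiest were Maged1, a gene of the MAGE family, at 1.79% in shLuc and 3.45% in vehicle, and the cholesterol transport gene Npc2, at 2.59% and 3.35%. Sf3b2, Fam64a, Hadha and Tcn2 followed. The most variable was Rnf187, a ubiquitin ligase gene, with 549 to 3281 (median 1515) in shLuc and 471 to 1280.5 (median 882) in vehicle scaled reads, and then Lsm4, Camk1, Dpysl2, Vapa and Marcksl1. Over all 12 samples together, the mitochondrial fatty acid oxidation gene Hadha varied least, with a coefficient of variation of 3.33%, followed by Gipc1 (3.43%) and Atp5b (3.57%), against a median of 16.7%. Genes often used as references varied more: Gapdh by 9.37%, Polr2a by 9.46%, Actb by 31.8% and Hprt by 42.8%.

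Between the 2 control groups, differences were widespread and mostly smaller than 2-fold. Of 11736 genes tested with limma on log2(scaled reads + 1), 3214 (27.4%) were higher in shLuc and 3224 (27.5%) lower at an adjusted p below 0.05. Of these, 272 genes (2.32% of those tested) were at least 2-fold higher and 945 (8.05%) at least 2-fold lower. In 3821 genes (32.6% of those tested), the call came with groups that did not overlap. The median log2 fold change was 0.01 over all genes. Scaled to total reads other than Rn45s, that median moved by -0.12, and 2429 genes were higher and 3977 lower, of which 170 and 1225 were past 2-fold. Without shLuc replicates 1 and 3 and vehicle replicate 1, 2984 rose and 2970 fell. Rn45s itself was lower in shLuc (log2 fold change -3.02, limma adjusted p = 4.1e-12).

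**Figure D2:**
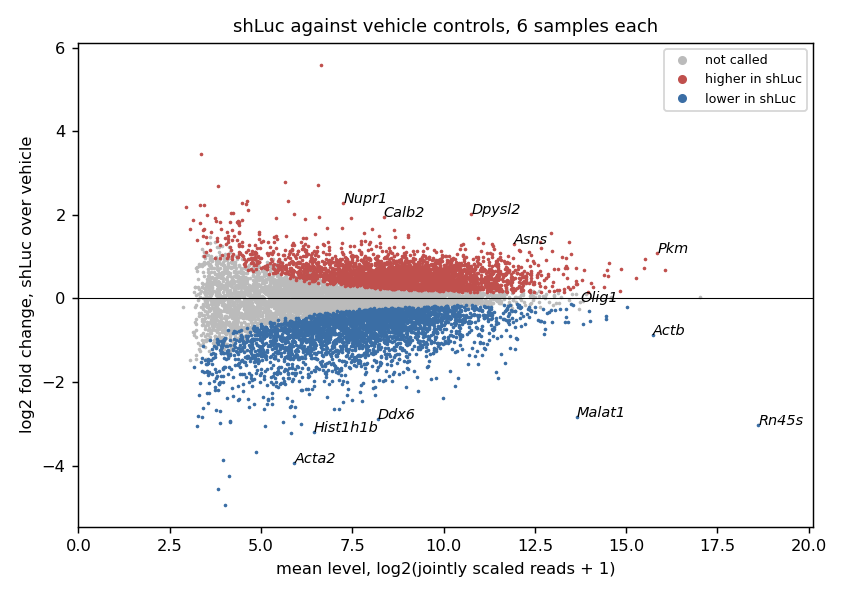
Each point is 1 of 11736 tested genes, placed by its mean level on the log2 scale and its log2 fold change of shLuc over vehicle, with called genes in red (higher in shLuc) or blue (lower). Called genes lie on both sides of 0 from low to high levels, and Rn45s and Malat1 lie lowest among the abundant RNAs.

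The difference moved with the base composition and length of transcripts. Genes were placed in 10 bins of equal size by GC share and by exon length. In the bin with the lowest GC share of exon sequence (31.0 to 41.3%), the median log2 fold change was -0.73, and 70.3% were called lower against 4.03% called higher. In the bin with a GC share of 53.2 to 55.3% the median was 0.30, with 45.3% called higher and 9.01% lower. From the shortest to the longest bin by exon length, the median ran from 0.21 to -0.27. Across 11667 genes, Spearman's rho of fold change was 0.47 with GC and -0.22 with length, both descriptions over genes that share the same 12 samples. Single samples against the rest of their group gave rho with GC from -0.35 (shLuc replicate 2) to 0.35 (shLuc replicate 3). With a smooth trend on GC and length removed from the levels, 3142 genes (26.9%) were higher and 2410 (20.7%) lower, and 273 and 499 were past 2-fold. What gave this relation was not tested. Gene lists below are given by counts or medians in the joint scaling, with the trend removed and scaled without Rn45s. Their counts are to be read against the shares over all tested genes. These were 27.4% higher and 27.5% lower in the joint scaling, and 26.9% and 20.7% with the trend removed. Scaled without Rn45s, 2429 of 11736 tested genes were higher and 3977 lower, and the median over all genes was -0.11. The trend setting was chosen after the data had been seen.

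**Figure D3:**
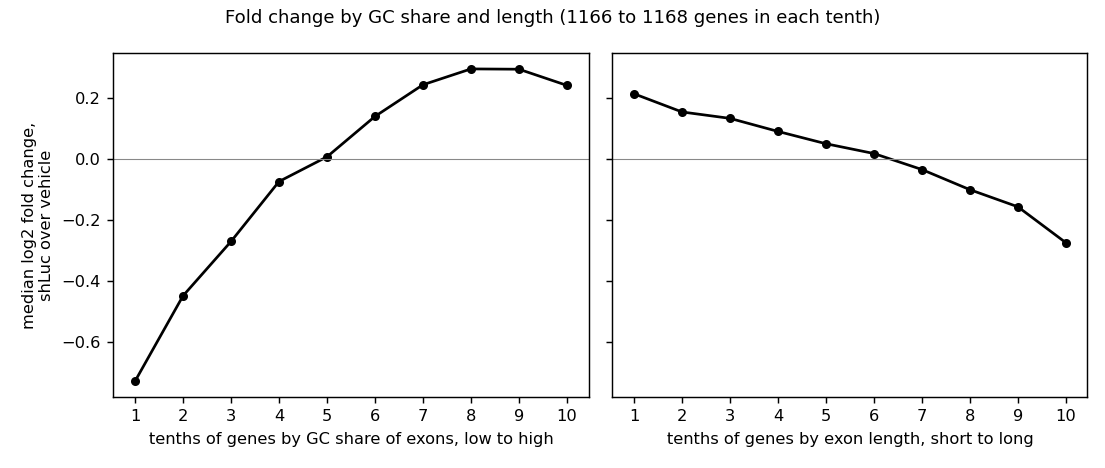
Median log2 fold change of shLuc over vehicle in 10 equal bins of the tested genes ordered by GC share of exons (left) and by exon length (right). The medians rise from -0.73 to about 0.30 with GC and fall from 0.21 to -0.27 with length.

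Of the 4 marker genes, 1 was called different between the control groups. Slc1a3 was higher in shLuc, at 8397 to 9359 (median 8789) in shLuc and 6734 to 7864 (median 7103) in vehicle scaled reads (log2 fold change 0.30, SE 0.05, limma adjusted p = 4.3e-05), and the groups did not overlap. Nes (0.04, adjusted p = 0.54), Olig1 (-0.08, adjusted p = 0.31), Egfr (-0.03, adjusted p = 0.78), Mki67 (-0.08, adjusted p = 0.55) and Ogt (-0.03, adjusted p = 0.76) were not called by limma. With the GC and length trend removed, Egfr became 0.35 (adjusted p = 0.00029), Ogt 0.42 (0.00011), Nes -0.16 (0.028) and Olig1 -0.26 (0.011) in the limma fit, all past the threshold. Sox2 was lower in shLuc (log2 fold change -0.84, SE 0.21, limma adjusted p = 0.0016), although the highest shLuc sample lay above the lowest vehicle sample. Vim was lower as well (log2 fold change -0.56, SE 0.07, limma adjusted p = 4.3e-07), and so was Fabp7 (log2 fold change -0.45, SE 0.09, limma adjusted p = 9.2e-05), whose value with the trend removed was -0.07 (adjusted p = 0.42). Slc1a3 was 0.54 in that setting. Of the 14 tested genes of the stem cell and radial glia list, 3 rose and 4 fell (median 0.09), near the 27.4% and 27.5% over all genes. The counts were 2 higher and 5 lower with the trend removed (median -0.09), and 1 and 5 scaled without Rn45s (-0.03). The summed level of this list was lower in shLuc, at 1768.5 to 2012.4 RPKM against 2229.2 to 2787.4 in vehicle.

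Genes of the integrated stress response were mostly higher in the shLuc cultures. In this pathway, stress kinases slow translation and the transcription factor ATF4 raises genes for amino acid supply and for the outcome of stress. Of 21 tested members, 13 rose, 3 fell and 5 were not called, and the median log2 fold change was 0.74 against 0.01 over all genes. There were 15 higher and 4 lower with the trend removed (median 0.48), and 13 and 3 scaled without Rn45s (0.62). The median over all genes was 0.04 with the trend removed and -0.11 scaled without Rn45s. Asns, which makes asparagine, lay at 4909 to 6594 (median 5481) in shLuc and 1945 to 2674 (median 2271) in vehicle scaled reads (log2 fold change 1.30, SE 0.08, limma adjusted p = 8.3e-12). Every shLuc sample was above every vehicle sample. The serine and glycine synthesis genes Shmt2 (1.24, adjusted p = 6.8e-12) and Phgdh (0.74, adjusted p = 1.6e-10, or 0.48 with the trend removed) rose too in the limma fit, as did Slc3a2, the heavy chain of amino acid transporters (0.96, adjusted p = 9.7e-12). Nupr1, a stress-induced chromatin protein gene, lay at 192 to 343 (median 236) in shLuc and 37.3 to 65.6 (median 53.6) in vehicle (log2 fold change 2.29, SE 0.18, limma adjusted p = 3.7e-10). Chac1, which degrades glutathione, lay at 240.1 to 328 (median 262) in shLuc and 41.7 to 94.8 (median 82.4) in vehicle (log2 fold change 1.92, SE 0.18, limma adjusted p = 6.5e-09), and Trib3, a pseudokinase gene that damps the response, at 166 to 251 (median 234) in shLuc and 49.7 to 86.2 (median 72.9) in vehicle (log2 fold change 1.68, SE 0.16, limma adjusted p = 7.5e-09). In these 3 genes the groups did not overlap, but they were picked as largest rises from genes without overlap. In the whole list the groups did not overlap in 12 of 21 tested members. Of all tested genes, 32.6% were called without overlap.

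Atf4 itself lay at 877 to 1006 (median 951) in shLuc and 805 to 1058 (median 918) in vehicle scaled reads and was not called (log2 fold change 0.03, SE 0.08, limma adjusted p = 0.76); with the trend removed it was -0.23 (adjusted p = 0.011). Ddit3, which encodes the stress factor CHOP, rose (log2 fold change 0.89, SE 0.19, limma adjusted p = 0.00033), with some overlap of samples. The 3 members that fell were Psat1, a serine synthesis gene (-0.20, limma adjusted p = 0.0053), Sesn2 (-0.17, adjusted p = 0.031, or -0.40 with the trend removed) and Slc7a11, the cystine transporter gene (-0.32, adjusted p = 0.049). The call of Sesn2 was lost without shLuc replicate 2 or 4 or vehicle replicate 3 or 5 (adjusted p up to 0.086), and that of Slc7a11 was lost in 10 of the 12 fits that left out 1 sample (all but those without shLuc replicate 2 or vehicle replicate 1, adjusted p up to 0.13). Slc7a11 turned to 0.38 (adjusted p = 0.031) with the trend removed.

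ATF4 and its partners bind a composite element, TGATGNAA. Among 19 members with a RefSeq promoter (GRCm38.p6), 5 held this motif on either strand in the 250 bases before a listed start: 4 of 12 that rose, 1 of 3 that fell, 0 of 3 not called and 0 of 1 too low to test. The motif was in 2.21% of 9011 promoters of tested genes and in 3.45% of all 32851 windows of that length. The stretches of 30 bases around the matches are shown because they differ between members of 1 response, on the strand of the gene, with the match in capitals.
Asns, chr6:7693214-7693243, minus strand: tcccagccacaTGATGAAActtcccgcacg
Chac1, chr2:119351038-119351067, plus strand: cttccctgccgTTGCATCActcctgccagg
Nupr1, chr7:126625562-126625591, minus strand: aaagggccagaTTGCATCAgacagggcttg
Vldlr, chr19:27216809-27216838, plus strand: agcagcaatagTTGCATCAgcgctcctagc
Slc7a11, chr3:50443651-50443680, minus strand: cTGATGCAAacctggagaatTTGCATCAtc
The match begins 23 bases before the start in Asns, 193 in Chac1, 110 in Nupr1 and 200 in Vldlr. Slc7a11, which fell, holds 2 matches, the first 66 bases before its start. Of the others shown, Vldlr, a lipoprotein receptor gene, rose (log2 fold change 1.04, SE 0.10, limma adjusted p = 1.5e-08).

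**Figure D4:**
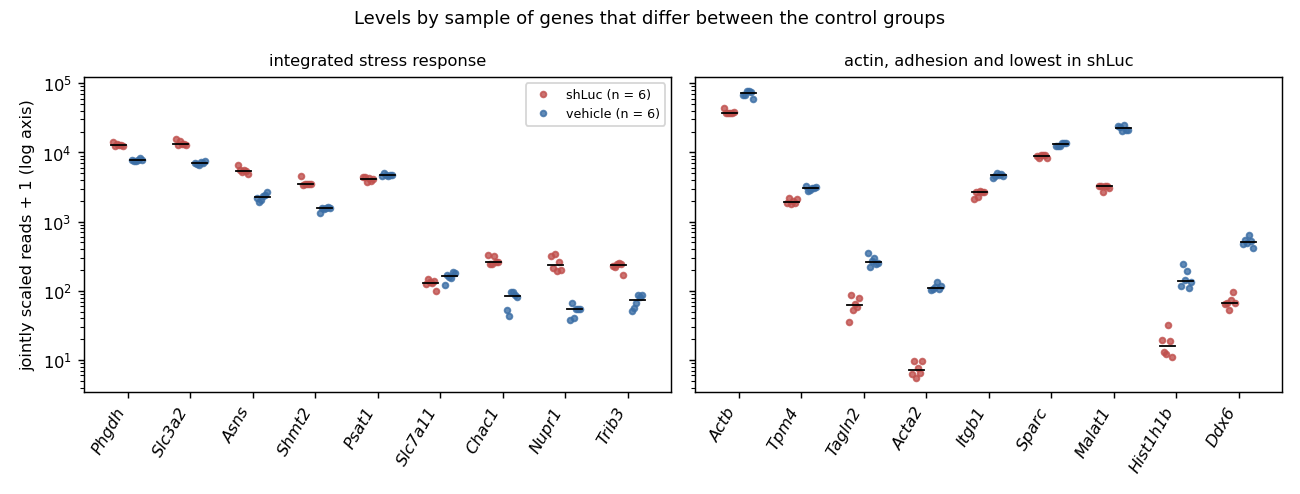
Scaled reads plus 1 on a log axis for 9 integrated stress response genes (left) and 9 genes among the actin, adhesion and most lowered (right), by sample, with shLuc in red, vehicle in blue and the group median as a bar. Asns, Chac1, Nupr1 and Trib3 separate upward in shLuc, and Actb, Tagln2, Acta2, Malat1 and Ddx6 separate downward.

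Oxidative phosphorylation genes were mostly higher in shLuc as well. Of 31 nuclear genes of oxidative phosphorylation, 19 rose and 4 fell (median 0.36), against 27.4% and 27.5% of all genes. The counts were 18 higher and 3 lower with the trend removed (median 0.30), and 16 and 7 scaled without Rn45s (0.23). Uqcrc1, a complex III core subunit gene, lay at 14366 to 18454 (median 15188) in shLuc and 5502 to 7625 (median 6009) in vehicle scaled reads (log2 fold change 1.35, SE 0.08, limma adjusted p = 4.9e-12). Sdhb, of complex II, rose by 1.12 (adjusted p = 1e-10) in the same fit. The glycolysis and hypoxia list had 10 genes higher and 4 lower of 18 (median 0.17), but 7 higher and 4 lower with the trend removed (median 0.06), and 7 and 4 scaled without Rn45s (0.05). Pkm, the pyruvate kinase gene, rose (log2 fold change 1.08, SE 0.06, limma adjusted p = 4.9e-12), and Eno1, for enolase, by 0.95 (limma adjusted p = 9.6e-12). Of 40 cytosolic ribosomal protein genes, 14 rose and 0 fell, but their median of 0.11 became -0.03 with the trend removed and -0.01 when scaled without Rn45s. The medians over all genes in these 2 settings were 0.04 and -0.11.

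Called DNA replication genes were mostly higher in shLuc, and called mitotic genes were split. Of 24 genes of the G1/S transition and replication, 15 rose and 2 fell (median 0.33), against 27.4% and 27.5% of all genes. There were 18 higher and 1 lower with the trend removed (median 0.37), and 12 and 3 scaled without Rn45s (0.21). Mcm2, a subunit gene of the replicative helicase, lay at 2890.1 to 3732 (median 3235) in shLuc and 1578 to 2053 (median 1958) in vehicle scaled reads (log2 fold change 0.77, SE 0.07, limma adjusted p = 6.8e-09). Mcm3 (0.62, or 0.41 with the trend removed) and Mcm5 (0.61) rose with it. Ccne2, for cyclin E, fell (log2 fold change -1.05, SE 0.11, limma adjusted p = 5.7e-08), but it stood at -0.07 (adjusted p = 0.53) with the trend removed. Mitotic genes had 7 higher and 8 lower of 23 (median -0.08), near the shares of all genes. They had 7 higher and 3 lower with the trend removed (median 0.11), and 5 and 12 scaled without Rn45s (-0.20). The median over all genes was -0.11 when scaled without Rn45s. Cdkn1b, for the p27 inhibitor, was among the genes that fell most, at 31.3 to 53.6 (median 46.7) in shLuc and 184 to 342 (median 251) in vehicle (log2 fold change -2.48, SE 0.17, limma adjusted p = 4.8e-11). Of 21 p53 targets, 6 rose and 10 fell (median -0.20), with 3 higher and 10 lower with the trend removed (median -0.23), and 3 and 12 scaled without Rn45s (-0.32). Those that fell included Ccng1, for cyclin G1 (-0.89, or -0.33 with the trend removed), and Btg2, an antiproliferative gene (-0.77).

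Called actin and adhesion genes were mostly lower in shLuc. Of 17 tested genes of the actin cytoskeleton, 8 fell and 1 rose (median -0.42), against 27.5% and 27.4% of all genes. There were 1 higher and 12 lower with the trend removed (median -0.51), and 0 and 11 scaled without Rn45s (-0.54). Acta2 lay at 4.5 to 8.67 (median 6.1) in shLuc and 102 to 133 (median 109) in vehicle scaled reads (log2 fold change -3.94, SE 0.25, limma adjusted p = 1.8e-11), the largest fall among called genes that reached a mean of 100 scaled reads and whose groups did not overlap. Actb lay at 36633 to 44188 (median 37574) in shLuc and 60168 to 76185 (median 71374) in vehicle (log2 fold change -0.87, SE 0.07, limma adjusted p = 3.1e-10), and the actin-binding protein gene Tagln2 at 34.5 to 85.8 (median 60.4) in shLuc and 219 to 352 (median 260.2) in vehicle (log2 fold change -2.16, SE 0.18, limma adjusted p = 1.4e-09). The groups did not overlap in any of the 3, which were picked for a large fall without overlap, a high level or a small p-value. In the whole actin list the groups did not overlap in 7 of 17 tested genes. Of all tested genes, 32.6% were called without overlap. Of 22 matrix and adhesion genes, 14 fell and 3 rose (median -0.51), with 2 higher and 13 lower with the trend removed (median -0.34), and 0 and 15 scaled without Rn45s (-0.63). Those that fell included Itgb1, the integrin beta 1 gene, at 2129 to 2769 (median 2674) in shLuc and 4276 to 5117 (median 4673) in vehicle (log2 fold change -0.90, SE 0.07, limma adjusted p = 4.9e-10), and Sparc, a matrix glycoprotein gene (-0.57, adjusted p = 1.1e-08). Acta2 is also a marker of mural cells, whose other listed genes were below 1 RPKM.

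Growth factor signalling genes were called at shares near those of all genes. Among 16 genes of EGF and FGF signalling, 5 rose and 6 fell, against 27.4% and 27.5% of all genes, with 5 higher and 6 lower with the trend removed (median -0.10), and 4 and 6 scaled without Rn45s (-0.13). The feedback genes Spry2 (log2 fold change -1.38, SE 0.16, limma adjusted p = 1.3e-07) and Spred1 (-1.57, adjusted p = 2.7e-09, or -0.99 with the trend removed) fell, whereas Spry4 (0.41, adjusted p = 7.7e-06, or 0.26 with the trend removed) and Dusp6 (0.34, adjusted p = 8.1e-06) rose in the limma fit. Of 10 Notch genes, 4 fell and 0 rose, against 27.5% and 27.4% of all genes. There were 1 higher and 5 lower with the trend removed (median -0.40), and 0 and 6 scaled without Rn45s (-0.39). Notch1 stood at -0.46 and Notch3 at -1.03. Of 10 BMP pathway genes, 5 fell and 2 rose, against the same shares. There were 0 higher and 4 lower with the trend removed (median -0.12), and 0 and 6 scaled without Rn45s (-0.41). The receptor gene Bmpr1a stood at -1.49 (-0.93 with the trend removed) and the target gene Id2 at -1.33.

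Genes that respond to virus did not move as one. Of 14 tested interferon response genes, 3 rose and 2 fell, below the 27.4% and 27.5% of all genes. There were 1 higher and 3 lower with the trend removed (median 0.18), and 2 and 2 scaled without Rn45s (-0.04). The other 17 of the 31 listed were too low to test. Among them, Ifit1 lay at 0 to 29.9 (median 4.05) in shLuc and 0 to 2.57 (median 0) in vehicle scaled reads, and Isg15 at 1.33 to 11.8 (median 3.67) in shLuc and 0 to 4.14 (median 1.37) in vehicle. The MHC class I list, which holds genes of antigen presentation, had 8 higher and 1 lower of 11 (median 0.66), with 5 higher and 1 lower with the trend removed (median 0.41), and 8 and 1 scaled without Rn45s (0.54). The summed level of the list was nevertheless lower in shLuc, at 300 to 336 RPKM against 360 to 440 in vehicle. H2-D1, a class I heavy chain gene, lay at 661 to 852 (median 728) in shLuc and 316 to 518 (median 414) in vehicle (log2 fold change 0.87, SE 0.11, limma adjusted p = 5.1e-07), and the immunoproteasome gene Psmb10 rose by 0.90 (adjusted p = 4.7e-07). B2m, the light chain gene, fell (log2 fold change -0.66, SE 0.07, limma adjusted p = 7.2e-08), with -0.17 once the trend was removed. Reads of class I genes can be shared with close relatives, so their single values are uncertain.

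The largest falls were of mixed kinds, with Malat1, 2 linker histone genes, Rn45s and several messenger RNAs. Of 10 clustered histone genes, 2 rose and 5 fell, against 27.4% and 27.5% of all genes. There were 2 higher and 5 lower with the trend removed (median -0.32), and 2 and 6 scaled without Rn45s (-0.36). Of 10 nuclear or snoRNA-host long noncoding RNAs, 0 rose and 6 fell, with 2 higher and 3 lower with the trend removed (median -0.18), and 0 and 6 scaled without Rn45s (-0.57). Malat1, a nuclear long noncoding RNA, lay at 2722 to 3294 (median 3246) in shLuc and 20684 to 24620.1 (median 22408) in vehicle scaled reads (log2 fold change -2.83, SE 0.06, limma adjusted p = 5.6e-20). The linker histone genes Hist1h1b, at 10.1 to 30.8 (median 14.8) in shLuc and 107 to 241 (median 138) in vehicle (log2 fold change -3.19, SE 0.26, limma adjusted p = 1e-09), and Hist1h1e (-3.0, adjusted p = 6.5e-09) fell, as did Ddx6, an RNA helicase gene of messenger RNA decay (log2 fold change -2.89, SE 0.14, limma adjusted p = 5.6e-13), and Xrn1, the exonuclease gene (-2.60, adjusted p = 3.7e-07). Ugt1a6a (-3.23), Ap3s1 (-2.65) and Depdc1a (-2.65, or -1.58 with the trend removed) completed the 10 largest falls with Acta2 and Rn45s. Histone and Ugt1a genes share sequence with close relatives, so their single values are uncertain. The Rn45s share of reads is given above for each group, and its part in these differences was not tested.

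The largest rises were led by Apoo-ps, a pseudogene whose reads can come from its parent gene, at 132 to 253 (median 182) in shLuc and 0 to 68.9 (median 0) in vehicle scaled reads. Ap3b2, an adaptor subunit gene of neurons (2.71), Dpysl2, a gene of axon growth (2.01), Calb2, the gene for calretinin (1.96), Med18 (1.94), Aldh1a1, a retinoic acid synthesis gene (1.89), and Chga, of secretory granules (1.69), followed with Nupr1, Chac1 and Trib3. Calb2 lay at 428 to 675 (median 472) in shLuc and 113 to 158 (median 133) in vehicle, with the groups apart (limma adjusted p = 2.3e-11). Dpysl2 was also among the 6 genes most variable within groups.

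Genes of O-GlcNAc cycling and the hexosamine pathway were called at shares near those of all genes, and single members differed. Gfpt2, which encodes the enzyme that commits sugar to the hexosamine pathway, lay at 2747 to 3294 (median 3209.9) in shLuc and 1083 to 1332 (median 1245) in vehicle scaled reads (log2 fold change 1.34, SE 0.07, limma adjusted p = 6.8e-13), and Gnpnat1, a later enzyme gene of that pathway, at 31.5 to 53.3 (median 48.1) in shLuc and 142 to 216 (median 198) in vehicle (log2 fold change -2.04, SE 0.17, limma adjusted p = 1.1e-09; -1.30 with the trend removed). Mgea5 fell (log2 fold change -0.33, SE 0.12, limma adjusted p = 0.025), a call lost without shLuc replicate 1 (-0.23, adjusted p = 0.071), vehicle replicate 2 (-0.26, 0.076) or vehicle replicate 6 (-0.29, 0.061), and stood at -0.16 (adjusted p = 0.24) with the trend removed. Of 13 genes of the list, 4 rose and 5 fell (median -0.03), against 27.4% and 27.5% of all genes, with 5 higher and 3 lower with the trend removed (median 0.04), and 4 and 5 scaled without Rn45s (-0.15).

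Fold changes of Y-linked genes turned sign with the trend removed in the 3 that were called, and all 4 tested had a GC share of 35.8 to 43.8%. Uty (log2 fold change -1.06, SE 0.20, limma adjusted p = 9.2e-05), Eif2s3y (log2 fold change -0.50, SE 0.11, limma adjusted p = 0.00039) and Ddx3y (log2 fold change -0.59, SE 0.17, limma adjusted p = 0.005) were called lower in shLuc. With the trend removed, Eif2s3y was 0.47 (adjusted p = 0.00063) and Ddx3y 0.44 (0.0075), both called higher, and Uty was 0.07 (0.77). Kdm5d, not called in the joint scaling, was called higher as well, so 3 of the 4 tested were higher in that setting.

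**Figure D5:**
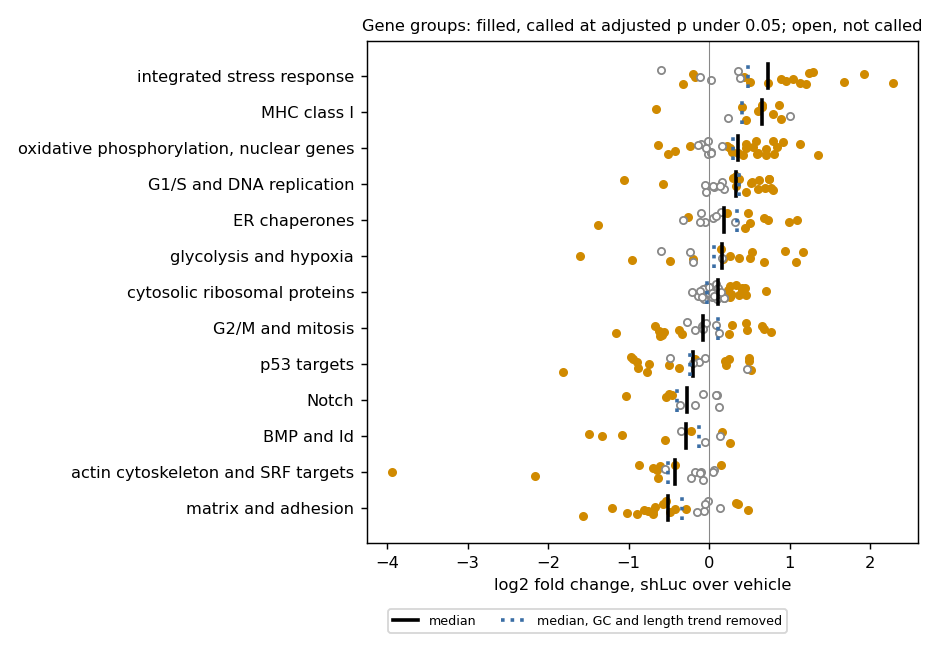
Log2 fold change of shLuc over vehicle for the tested genes of 13 groups, with called genes filled and others open, the group median as a black bar and the median with the GC and length trend removed as a blue dotted bar. The integrated stress response and MHC class I groups lie to the right, and the matrix and actin groups to the left, with either median.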

How the data were processed

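Members and gene lists were chosen with earlier results of these data known. The labels describe strand-specific poly(A) libraries and the series text Smart-Seq2. Which applies to which group is not resolved, so the groups may differ in it. STAR, RSEM and DESeq2 appear in the submitters' processing notes without versions, beside the build hg38, although the tables carry mouse symbols. The authors deposited normalised counts for each arm, a signal that is never negative, made by dividing counts by a size factor. Every value was a whole multiple of 1 step per sample (100% within 0.001), so reads were recovered by division. The 12 control columns were joined by gene and scaled together with median-of-ratios factors. Genes were kept by edgeR's filterByExpr (minimum count 10, minimum total 15), which left 11736 genes with 99.8% of reads. The groups were compared, two-sided, with limma 3.58.1 with an intensity trend on log2(scaled reads + 1) and no covariates, with Benjamini-Hochberg adjustment over all tested genes and a threshold of 0.05. Fold changes of low genes come out too small on this scale. On the recovered reads, edgeR 4.0.16 (quasi-likelihood) called 6433 genes and DESeq2 1.42.0 called 6522, against 6438 by limma. The procedure was tested on simulated data. A first requirement on the recovery of changes below 2-fold was not met and was replaced by limits on bias, false calls and recovery of 2-fold changes, so a gene that was not called may still differ by less than 2-fold. Exon lengths and GC shares came from GENCODE vM21 (GRCm38), matched by symbol for 24024 of 24411 entries.

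Named genes are the 4 markers, the 12 highest by RPKM outside ribosomal genes, the members of each of 42 lists with the highest level or smallest adjusted p (up to 4 of each), the 10 largest rises and the 10 largest falls that reached 100 scaled reads without overlap of groups, the 6 steadiest and 6 most variable genes with a mean of at least 500, the sex-linked list, and Sox2, Gfap, Dcx, Mki67, Ogt, Mgea5 and Rn45s. Aqp4, Atf4, Ddit3, Emx1, Emx2, Gipc1, Hes1, Hes5, Ifit1, Isg15, Lhx2, Neurod1, Pdgfra, Polr2a, Sesn2, Slc7a11, Sox10 and Vldlr were added after their values were seen. Alternatives were other scalings, pseudocounts of 0.5 and 5, other filters, thinning to equal depth, a replicate block and left-out samples, and, chosen after seeing the data, removal of a GC and length trend and of 3 samples together. The labels give no batch.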

Additional observations from a re-analysis of the deposited data

Results flagged for a closer look

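In groups of 6 samples, a highest or lowest sample was singled out where its gap to the nearest other sample, divided by the group's whole range, was above Dixon's critical value. Of 262 groups of values, 24 (9.16%) held such a sample, where chance gives about 1 in 20. The gap as a share of the range is given in brackets. For shLuc replicate 3 the number of olfactory receptor genes with a read was high (0.808). A high shLuc replicate 1 was found for Actb (0.830), Shmt2 (0.917), Sdhb (0.754), Hspa8 (0.732), Eef1a1 (0.730), Dusp6 (0.727), 1500015O10Rik (0.724) and Vim (0.722), and a low one for Mgea5 (0.752). Of the other shLuc samples, replicate 3 was low for Malat1 (0.647), replicate 5 high for Ifit1 (0.642) and replicate 6 low for Trib3 (0.652). Vehicle replicate 1 was low for Igfbp2 (0.784) and Camk1 (0.667) and high for Sox2 (0.832). Vehicle replicate 6 was high for Dpysl2 (0.810), Ubb (0.706) and Ftl1 (0.667). Vehicle replicate 2 was low for Ccnd2 (0.627) and high for Marcksl1 (0.648), replicate 3 low for Eif2s3y (0.708), and replicate 4 low for Mcm2 (0.785) and high for Xrn1 (0.703).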

How the results depend on the processing

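The count of genes called, 6438, stayed within 1.5 times of that value under all alternatives run, from 5552 with the GC and length trend removed to 6522 with DESeq2. The count called and at least 2-fold higher, 272, became 170 when scaled without Rn45s and 164 with at least 10 reads in each sample. The count at least 2-fold lower, 945, became 499 with the trend removed. Same-numbered shLuc and vehicle samples deviated together with r of 0.121, -0.108, 0.108, 0.147, 0.0903 and 0.0232 over 7780 genes, and 3 of 6 correlated best with their own number, so whether the numbers pair the samples is unclear, and no pairing was assumed. The replicate block gave 6496 calls. Of the 12 most abundant genes, 9 were shared with the order by longest transcript, 10 with that in shLuc alone and 9 with that in vehicle alone. Of the 12 steadiest and most variable genes, 6 were shared without both replicates 1. The number of genes with a read was 780 higher in shLuc (exact permutation p = 0.0498), and 420.9 to 1020 higher with 1 sample left out, with p from 0.00433 to 0.0996.

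Of 77 genes whose log2 fold change is given, 63 kept direction and call under all alternatives run. Signs turned as follows, and the cause was not tested. With the trend removed, the values were Atf4 -0.23, Ddx3y 0.435, Egfr 0.35, Eif2s3y 0.47, Mki67 0.11, Nes -0.16, Ogt 0.42, Slc7a11 0.38 and Uty 0.072. Scaled without Rn45s, Atf4 was -0.091 and Nes -0.078. With upper quartile scaling, Egfr was 0.011 and Ogt 0.0050. Leaving out 1 sample gave -0.0097 to 0.069 for Atf4, -0.068 to 0.019 for Egfr, -0.17 to 0.0026 for Mki67 and -0.086 to 0.0049 for Ogt. Without both replicates 1, Atf4 was -0.011 and Egfr 0.00047. Without shLuc replicates 1 and 3 and vehicle replicate 1, Atf4 was -0.023 and Egfr 0.056. Those 3 samples left out, 12 integrated stress response genes rose and 3 fell (median 0.68). Vehicle had fewer reads than shLuc, and genes below the filter were not tested.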

Other observations

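Protein folding and sterol genes held called members in both directions. Of 18 tested genes of the endoplasmic reticulum chaperone list, 8 rose and 2 fell (median log2 fold change 0.19 against 0.01 over all genes), against 27.4% and 27.5% of all genes. There were 11 higher and 4 lower with the trend removed (median 0.34), and 7 and 6 scaled without Rn45s (0.07). Herpud1, a gene of endoplasmic reticulum protein degradation, lay at 557 to 731 (median 644) in shLuc and 273 to 376 (median 309) in vehicle scaled reads (log2 fold change 0.99, SE 0.09, limma adjusted p = 7.2e-09). Pdia6, a protein disulfide isomerase gene, rose by 0.51 (adjusted p = 4.5e-08) in the limma fit, whereas Dnajb9, a co-chaperone gene, was -1.38 (adjusted p = 9.6e-09), or -0.80 with the GC and length trend removed. Herpud1 and Pdia6 stood above vehicle in every shLuc sample and Dnajb9 below it.

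Of 25 genes of cholesterol synthesis and uptake, 11 rose and 9 fell, against 27.4% and 27.5% of all genes. There were 8 higher and 8 lower with the trend removed (median 0.02), and 5 and 10 scaled without Rn45s (-0.11). Idi1, the isopentenyl diphosphate isomerase gene, lay at 867 to 1381 (median 1088) in shLuc and 2338 to 3137 (median 2716) in vehicle scaled reads (log2 fold change -1.27, SE 0.09, limma adjusted p = 1.6e-10; -0.80 with the trend removed), while Fdps, the gene of the next enzyme, farnesyl diphosphate synthase, lay at 5301 to 7599.8 (median 5893) in shLuc and 3749.5 to 4343 (median 3889) in vehicle (log2 fold change 0.62, SE 0.07, limma adjusted p = 1.3e-07). The groups did not overlap in either, and both were picked for a high level or a small p-value. In the whole cholesterol list the groups did not overlap in 14 of 25 tested genes. Of all tested genes, 32.6% were called without overlap. Of 14 heat shock genes, 4 rose and 6 fell, with 4 higher and 7 lower with the trend removed (median -0.10), and 2 and 7 scaled without Rn45s (-0.16). Hspd1, a mitochondrial chaperonin gene, was -0.51 (limma adjusted p = 2e-07) and its partner Hspe1 -0.93 (adjusted p = 9.3e-08).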
